A study of Homo sapiens with 6 samples.

Results

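The genes described here encode the nucleoporins, the proteins that build the nuclear pore complex. They were found in the deposited expression table by gene symbol, as every symbol made of NUP, a number and at most 1 further letter, together with POM121, POM121C, NDC1, RANBP2, TPR, SEH1L, SEC13, AAAS, RAE1 and GLE1. The rule found 32 of the 61806 genes in the table, and 31 of these had enough reads to be tested. No measured value entered the rule. All 32 carry a nuclear pore term in the deposited Gene Ontology annotation.

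RNA-seq was done on 6 libraries of HCT116, an established human colorectal carcinoma cell line. The 3 control libraries came from cells with a control small interfering RNA (si-NC, genotype given as wildtype), and the other 3 from cells with a small interfering RNA against STRIP2 (si-STRIP2, genotype given as a STRIP2 knockdown). STRIP2 is a subunit of the STRIPAK complexes, which join a phosphatase to kinases, and the comparison asks which transcripts differ once its RNA is lowered. The dose of the RNA duplexes, their number and the time after transfection are not given in the sources used here, and no other agent is named for either group. Whether replicate libraries stem from separate cultures is not said in the labels, so p-values measure only the spread between these libraries.

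The nuclear pore complex is a ring-shaped channel through the nuclear envelope that carries proteins and RNA between nucleus and cytoplasm. Its scaffold consists of outer rings made of the Y complex, named for its shape, and an inner ring that sits against the membrane. Nucleoporins with phenylalanine-glycine (FG) repeats fill the channel and bind transport receptors, transmembrane nucleoporins anchor the scaffold, and filaments extend into the cytoplasm and, as a basket, into the nucleus. Several nucleoporins, the Y complex among them, also bind kinetochores in mitosis, and dividing cells build new pores in interphase as well as after mitosis.

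Total counts lay between 17184963 and 21721218 per library. STRIP2 itself was at 3.19, 3.77 and 3.81 FPKM (fragments counted, scaled by exon length and library total) in si-NC and at 2.71, 2.53 and 2.58 FPKM in si-STRIP2. The si-STRIP2 mean was thus 72.6% of the control mean, with groups that did not overlap and a log2 fold change of -0.46 (SE 0.083, edgeR adjusted p = 1.62e-05). Mitochondrial genes took 7.01% ± 2.01 of control counts and 6.00% ± 0.287 of knockdown counts (SD, n = 3 each; p = 0.5 in a 2-sided exact permutation test, which cannot go below 0.1 with these numbers). The 8 colorectal epithelial markers summed to between 690.7 and 720.75 FPKM in si-NC and between 667.51 and 691.15 FPKM in si-STRIP2, with EPCAM and keratins high and VIL1 and LGALS4 near 0 in si-NC (0.023 and 0.033 FPKM). The 12 markers of blood, endothelial, muscle and stromal cells summed to at most 5.35 FPKM in any library, with the leukocyte marker PTPRC at 0.010 FPKM in si-NC. No marker was listed at 0 in every library. Of the 6 epithelial markers tested, CDH1 (36.6 to 24.2 FPKM), KRT18 and EPCAM fell, KRT19 (140 to 164 FPKM) and CDX2 rose, and KRT8 was not called. Of the 4 other markers tested, VIM rose (0.53 to 0.95 FPKM), and COL1A1, ACTA2 and DES, with estimates below 0, were not called. Their part in the results on nucleoporins was not tested.

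Most nucleoporin transcripts were modestly more abundant in si-STRIP2 cells. Of the 31 tested, 19 rose, 3 fell (NUP58, NDC1 and NUP88) and 9 did not pass the test, which was edgeR's quasi-likelihood test with a Benjamini-Hochberg adjusted p under 0.05 over all 15687 genes tested. The share called was 71.0%, beside 54.8% of all genes tested. By direction, 61.3% of the nucleoporins were called higher, beside 27.8% of all genes, and 9.68% were called lower, beside 27.0% of all genes. The median log2 fold change was 0.17 over the 31 nucleoporins and 0.014 over all genes tested.

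The changes were small in size. Called nucleoporins differed by 1.09-fold to 1.69-fold, with a median of 1.22-fold. A rise of at least 1.2-fold was called for 11 nucleoporins (35.5%, beside 19.4% of all genes tested), and a fall of that size only for NUP58. FPKM values were fully separated between groups for 23 of the 31 (74.2%, beside 58.6% of all genes). Summed over the 32 genes, the level was 412.07, 430.13 and 415.37 FPKM in si-NC and 471.13, 474.65 and 474.85 FPKM in si-STRIP2, so each si-STRIP2 library lay above each control. In means this was 419.19 ± 9.62 FPKM against 473.54 ± 2.09 FPKM (SD, n = 3 each). These are bulk libraries, in which a change in the share of cells of a kind and a change in RNA per cell cannot be told apart.

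**Figure D1:**
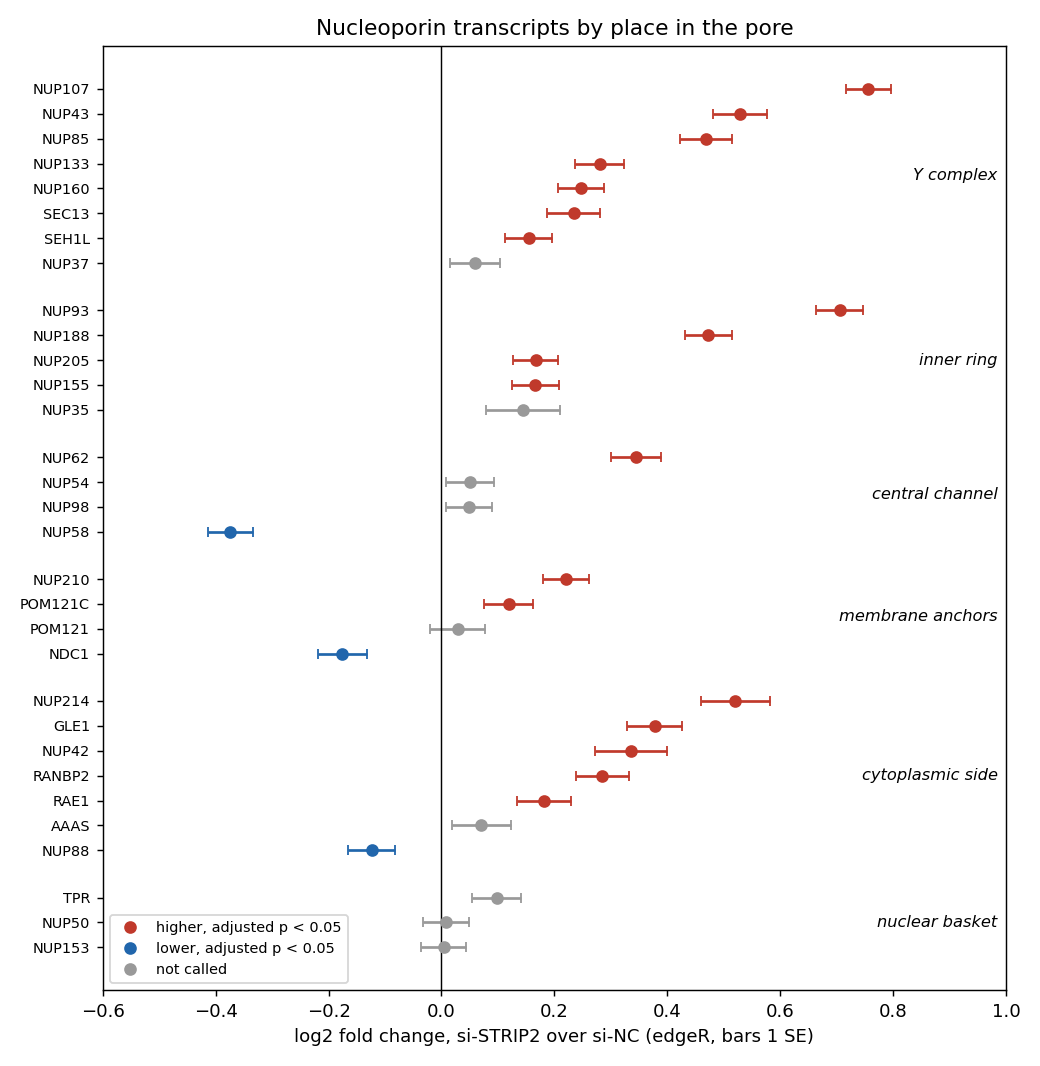
Log2 fold change of each of the 31 tested nucleoporins (horizontal axis, si-STRIP2 over si-NC, edgeR, bars 1 SE), arranged by place in the pore and coloured by call. Points of the Y complex, the inner ring and most of the cytoplasmic side lie right of 0, NUP58 lies farthest left at -0.37, and the 3 basket genes lie at or near 0.

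Most transcripts of the Y complex, the building block of the outer rings, rose. Of the 8 genes placed in it here, 7 were called higher (87.5%, beside 27.8% of all genes tested). NUP37 was not called, and the median log2 fold change was 0.26. No member was called lower by edgeR, and none had an unadjusted p under 0.05 in that direction or was called lower by DESeq2, limma-voom or limma on FPKM. Summed FPKM of the 8 genes ran from 116.64 to 120.31 in si-NC and from 148.82 to 151.28 in si-STRIP2. NUP98, whose gene also encodes a subunit of the Y complex, is counted in the central channel. It was not called (log2 fold change 0.049, edgeR adjusted p = 0.316).

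NUP107, a stem subunit of the Y (chr12:68686951-68745809, plus strand, GRCh38), had the largest fold change of all nucleoporins. It was at 13.58, 13.18 and 13.67 FPKM in si-NC and at 23.05, 23.02 and 22.41 FPKM in si-STRIP2. The groups were far apart, and within each the libraries were close together. The log2 fold change was 0.76 (SE 0.041, adjusted p = 4.43e-17), a 1.69-fold rise in counts.

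NUP43, a propeller-shaped subunit of the short arm (chr6:149724315-149749665, minus strand), was at 15.71, 18.35 and 16.39 FPKM in si-NC and at 24.60, 23.55 and 24.63 FPKM in si-STRIP2. The control libraries spread more than the knockdown libraries, and si-NC 2, the highest control, was still well below them. Its log2 fold change was 0.53 (SE 0.047, adjusted p = 1.61e-11). NUP85, the arm subunit to which SEH1L binds (chr17:75205659-75235758, plus strand), was at 13.18, 12.77 and 14.25 FPKM in si-NC and at 18.88, 18.53 and 18.34 FPKM in si-STRIP2. Again all knockdown libraries were higher, with a log2 fold change of 0.47 (SE 0.046, adjusted p = 1.42e-10).

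NUP133, the stem tip that binds NUP107, rose less than its partner. It was at 14.90, 14.59 and 13.92 FPKM in si-NC and at 17.40, 18.13 and 17.38 FPKM in si-STRIP2, with no overlap (log2 fold change 0.28, SE 0.043, adjusted p = 1.46e-06). NUP160, a large scaffold arm, went from 13.59 ± 0.462 to 16.15 ± 0.493 FPKM (SD, n = 3 each; log2 fold change 0.25, adjusted p = 5.24e-06). SEC13, which also forms the cage of COPII vesicles, rose by 0.23 on the log2 scale (adjusted p = 6.97e-05) and SEH1L, its relative, by 0.15 (adjusted p = 0.00228). Both had groups that did not overlap. NUP37, a peripheral subunit that binds NUP160, was at 25.16, 25.70 and 23.67 FPKM in si-NC and at 26.00, 25.19 and 26.67 FPKM in si-STRIP2. These groups overlapped, and the log2 fold change of 0.059 had an approximate 95% interval from -0.028 to 0.15 (adjusted p = 0.270).

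The transcripts of Y complex subunits therefore did not move by one common factor. The log2 ratio of NUP107 to NUP133 within a library, per length, was -0.13, -0.15 and -0.026 in si-NC and 0.41, 0.34 and 0.37 in si-STRIP2. NUP107 gained on its partner in every knockdown library. With the longest coding transcripts as lengths the mean ratio went from 0.0015 to 0.48, and the choice of length cannot alter the difference between groups. The difference of 0.47 had an exact 2-sided permutation p of 0.1, the smallest that 3 against 3 libraries allow, and 0.108 after Benjamini-Hochberg adjustment over the 13 ratios computed, which were chosen after the values had been seen. In the deposited annotation, a kinetochore term is attached to 7 nucleoporins, NUP107, NUP43, NUP85, NUP133, SEH1L, NUP37 and TPR. Of these, 5 rose and 2 did not pass the test, beside 61.3% of the tested nucleoporins and 27.8% of all genes called higher. All but TPR are Y complex genes counted above, so this is not a separate result.

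In the inner ring, 4 of 5 genes were called higher (80%, beside 27.8% of all genes tested). NUP35 was not called, and the median log2 fold change was 0.17. DESeq2, limma-voom and limma on FPKM also called 4 higher, and no member was called lower by any of these or had an unadjusted p under 0.05 in that direction. NUP93, which links the ring's subunits and recruits the channel nucleoporins (chr16:56730118-56850286, plus strand), was at 6.32, 6.60 and 6.31 FPKM in si-NC and at 10.51, 10.45 and 10.45 FPKM in si-STRIP2. This was the second-largest change among nucleoporins, with very little spread in the knockdown libraries (log2 fold change 0.71, SE 0.042, adjusted p = 8.16e-16). NUP188, one of a pair of related large scaffold proteins (chr9:128947699-129007096, plus strand), was at 13.96, 14.55 and 13.49 FPKM in si-NC and at 19.98, 19.70 and 18.70 FPKM in si-STRIP2. It rose by 0.47 on the log2 scale (SE 0.042, adjusted p = 1.19e-11), with groups well separated.

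NUP205, the other of that pair, and NUP155, which bridges the ring to the membrane, rose by 0.17 each (adjusted p = 7.44e-04 and 9.87e-04). NUP205 went from 17.2 ± 0.618 to 19.33 ± 0.332 FPKM and NUP155 from 16.8 ± 0.627 to 18.86 ± 0.535 FPKM (SD, n = 3 each), and neither gene's groups overlapped. NUP35, a membrane-binding ring protein, was at 7.26, 7.82 and 6.59 FPKM in si-NC and at 7.91, 7.99 and 8.12 FPKM in si-STRIP2. All knockdown libraries were above all controls by a narrow gap, and the test was not passed (log2 fold change 0.14, SE 0.066, adjusted p = 0.0630). Without si-NC 2, the highest control, it was called, with a log2 fold change of 0.19.

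NUP188 and NUP205 form alternative complexes with NUP93, and their relative transcript levels shifted. The log2 ratio of NUP188 to NUP205 was -0.24, -0.29 and -0.36 in si-NC and 0.022, 0.051 and -0.044 in si-STRIP2, and with the longest coding transcripts as lengths the means were -0.080 and 0.23. The choice of length shifts the ratio alike in every library, so it cannot alter the gain of NUP188 on NUP205. The log2 ratio of NUP93 to NUP205 was -1.39, -1.43 and -1.45 in si-NC and -0.90, -0.86 and -0.88 in si-STRIP2. For both ratios the groups did not overlap, with differences of 0.31 and 0.54 and the same smallest exact permutation p of 0.1 (adjusted 0.108).

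In the central channel, 1 of 4 genes was called higher and 1 lower. These shares of 25% each were near the 27.8% and 27.0% of all genes tested. The called genes encode proteins that work as one unit. Only RNA was measured here, so the make-up of the pore itself is not known. NUP62, NUP54 and NUP58 form a trimer of FG nucleoporins, held in the ring by NUP93, and NUP62 rose, NUP54 was not called and NUP58 fell. NUP62 (chr19:49906825-49929764, minus strand) was at 11.20, 10.96 and 11.39 FPKM in si-NC and at 14.33, 14.36 and 14.00 FPKM in si-STRIP2. All knockdown libraries were higher, and the log2 fold change was 0.34 (SE 0.044, adjusted p = 4.51e-08).

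NUP58 (chr13:25301524-25365390, plus strand) was at 17.78, 17.91 and 17.51 FPKM in si-NC and at 13.77, 13.41 and 13.97 FPKM in si-STRIP2. Here all knockdown libraries were lower, at 77.3% of the control mean (log2 fold change -0.37, SE 0.039, adjusted p = 6.86e-10). It was the largest fall among nucleoporins. NUP54 was at 6.14, 6.37 and 6.09 FPKM in si-NC and at 6.60, 6.19 and 6.51 FPKM in si-STRIP2, with overlapping groups (log2 fold change 0.050, approximate 95% interval -0.034 to 0.13, adjusted p = 0.330).

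The log2 ratio of NUP62 to NUP58 was -0.67, -0.71 and -0.62 in si-NC and 0.057, 0.099 and 0.0028 in si-STRIP2. NUP62 gained on NUP58 in every knockdown library. Which of the pair is the more abundant per length depends on the length used, since with the longest coding transcripts the mean ratio went from -0.99 to -0.28. The difference of 0.72 had an exact 2-sided permutation p of 0.1, the smallest possible (adjusted 0.108). NUP98, an FG nucleoporin whose gene also encodes NUP96 of the Y complex in the same precursor, was at 13.16 ± 0.411 FPKM in si-NC and 13.6 ± 0.432 FPKM in si-STRIP2 (SD, n = 3 each), and its groups overlapped (log2 fold change 0.049, adjusted p = 0.316). With 1 gene higher, 1 lower and 2 not called, the summed channel level was between 47.79 and 48.85 FPKM in si-NC and between 47.11 and 48.64 FPKM in si-STRIP2.

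**Figure D2:**
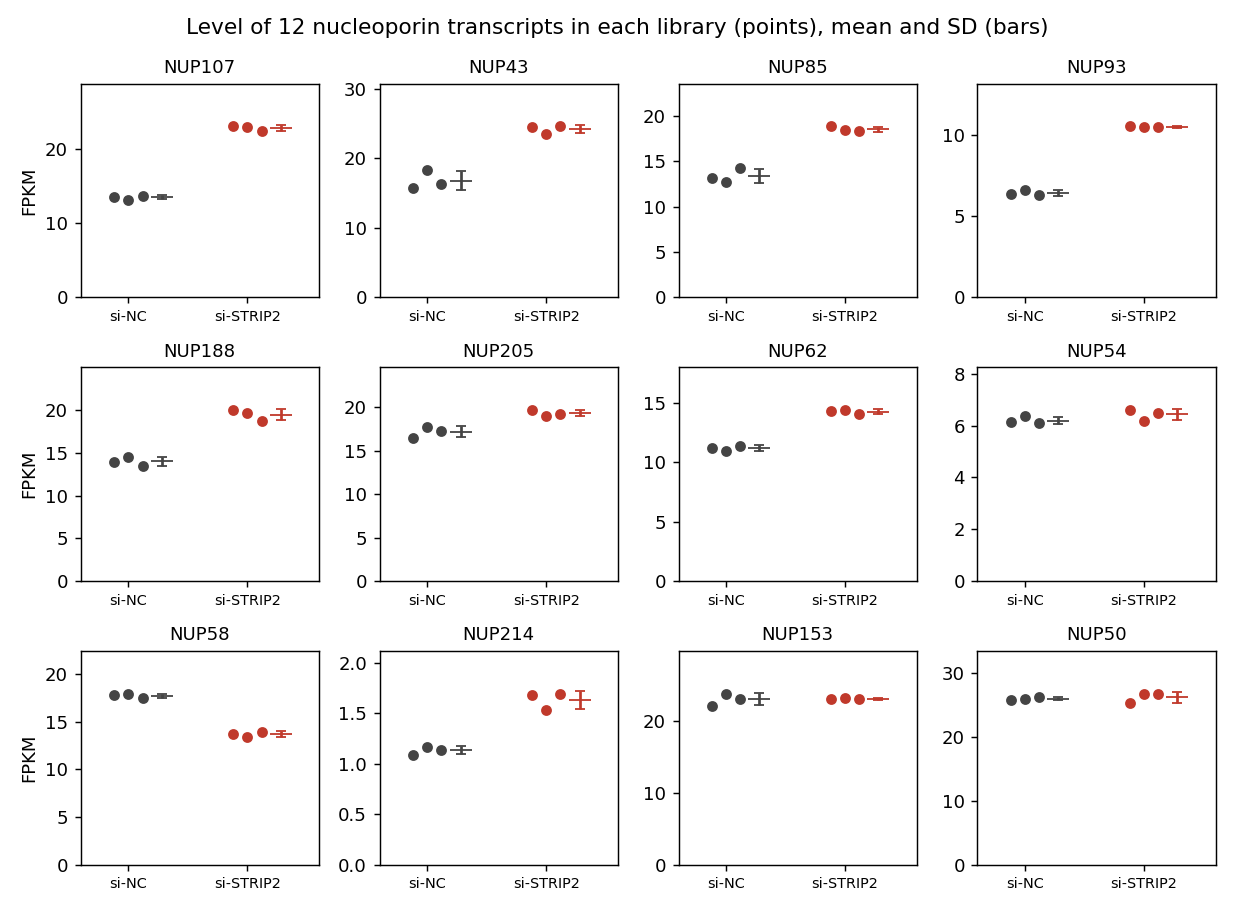
FPKM (vertical axes, each from 0) of 12 nucleoporins in each library (points) with the mean and SD of each group of 3 (bars beside them), controls in grey and si-STRIP2 in red. NUP107 and NUP93 show the widest gaps, NUP58 is the gene with its si-STRIP2 points below, and the points of NUP54, NUP153 and NUP50 overlap between groups.

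Among the membrane anchors, 2 of 4 tested genes rose, 1 fell and 1 was not called, with a median log2 fold change of 0.074. The shares called higher and lower were 50% and 25%, beside 27.8% and 27.0% of all genes tested. NUP210, a glycoprotein with a large domain in the lumen of the envelope, was at 11.64, 12.03 and 11.89 FPKM in si-NC and at 13.47, 14.02 and 14.03 FPKM in si-STRIP2 (log2 fold change 0.22, SE 0.040, adjusted p = 1.86e-05). NDC1, a conserved multi-pass anchor, was at 35.50, 37.60 and 35.12 FPKM in si-NC and at 30.38, 33.17 and 32.49 FPKM in si-STRIP2. NUP210 was thus higher and NDC1 lower in every knockdown library, the latter with a log2 fold change of -0.18 (SE 0.043, adjusted p = 7.59e-04).

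POM121 and POM121C are near-identical anchors encoded by separate genes on chromosome 7. POM121C went from 9.40 ± 0.374 to 10.2 ± 0.246 FPKM (SD, n = 3 each; log2 fold change 0.12, adjusted p = 0.0225), and POM121 from 5.83 ± 0.050 to 5.96 ± 0.144 FPKM, with overlapping groups (log2 fold change 0.028, adjusted p = 0.637). Of the words of 50 bases in the longest coding transcript of POM121C, 63.3% occurred in another gene's transcripts, and 52.1% in those of POM121. Counts of these genes are therefore uncertain. Summed, they had a log2 fold change of 0.082 (adjusted p = 0.0829), and POM121C alone lost its call without si-NC 1 (0.088), si-STRIP2 2 (0.099) or si-STRIP2 3 (0.12) and with DESeq2 (0.11), with no filter on low counts (0.12) and against a 1.2-fold change. NUP210L, a relative of NUP210 known from the testis, was the gene left untested, with 6, 5 and 6 counts in si-NC and 10, 8 and 13 counts in si-STRIP2.

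On the cytoplasmic side, where messenger RNA leaves the pore, 5 of 7 genes rose, 1 fell and 1 was not called, with a median log2 fold change of 0.28. The shares called higher and lower were 71.4% and 14.3%, beside 27.8% and 27.0% of all genes tested. NUP214, an FG nucleoporin that binds export receptors (chr9:131125573-131234663, plus strand), was at 1.09, 1.17 and 1.14 FPKM in si-NC and at 1.68, 1.53 and 1.69 FPKM in si-STRIP2. Though it had the lowest FPKM of the tested nucleoporins, its groups were well apart (log2 fold change 0.52, SE 0.061, adjusted p = 7.82e-09). NUP88, its scaffold partner, was at 9.52, 9.69 and 9.60 FPKM in si-NC and at 8.5, 8.97 and 9.03 FPKM in si-STRIP2. It fell slightly (log2 fold change -0.12, SE 0.042, adjusted p = 0.0135), and without si-STRIP2 1, the lowest library, the fall of 0.088 was not called.

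The log2 ratio of NUP214 to NUP88 was -3.12, -3.04 and -3.07 in si-NC and -2.34, -2.55 and -2.42 in si-STRIP2. NUP214 gained on NUP88 in each knockdown library, by 0.64 on average, with the same smallest exact permutation p of 0.1 (adjusted 0.108).

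GLE1, which activates the helicase that strips export factors from emerging messenger RNA, was at 4.81, 4.61 and 4.51 FPKM in si-NC and at 5.97, 6.10 and 6.11 FPKM in si-STRIP2. Its anchor at the pore, NUP42, was at 6.22, 6.24 and 5.91 FPKM in si-NC and at 7.63, 7.81 and 7.83 FPKM in si-STRIP2. Both stood clearly above the controls, with log2 fold changes of 0.38 (SE 0.049, adjusted p = 4.70e-08) and 0.34 (SE 0.064, adjusted p = 3.72e-05). RANBP2, the large filament protein that binds RAN and acts as a SUMO ligase (chr2:108719482-108785810, plus strand), was at 8.57, 10.26 and 8.80 FPKM in si-NC and at 11.23, 11.02 and 11.46 FPKM in si-STRIP2. Its highest control, si-NC 2, came close to the knockdown libraries without reaching them (log2 fold change 0.28, SE 0.046, adjusted p = 3.25e-06).

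RAE1, an mRNA export factor that binds NUP98, rose by 0.18 on the log2 scale (SE 0.048, adjusted p = 0.00175), from 11.4 ± 0.520 to 12.94 ± 0.425 FPKM (SD, n = 3 each). AAAS, the scaffold protein altered in triple A syndrome, was at 9.63 ± 0.251 and 10.16 ± 0.411 FPKM (SD, n = 3 each) and was not called (log2 fold change 0.071, approximate 95% interval -0.032 to 0.17, adjusted p = 0.261). RANBP2 shares 27.1% of its 50-base words with other genes, chiefly the RGPD family derived from it. The 7 RGPD genes in the table held between 6.65% and 8.25% as many counts as RANBP2, and with their counts added its log2 fold change was 0.28 (adjusted p = 2.98e-06).

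None of the 3 basket genes was called by edgeR, beside 54.8% of all genes tested, and their median log2 fold change was 0.0083. TPR, the coiled-coil protein of the basket filaments, had the one unadjusted p under 0.05. It was at 25.43, 29.21 and 27.89 FPKM in si-NC and at 28.78, 29.83 and 29.82 FPKM in si-STRIP2. The lowest library was si-NC 1, and the groups overlapped through si-NC 2 (log2 fold change 0.098, SE 0.043, adjusted p = 0.0547). TPR was called by limma-voom (0.10), though not by DESeq2 or limma on FPKM, and by edgeR without si-NC 2 (0.13), si-NC 3 (0.11) or si-STRIP2 1 (0.12).

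NUP153, which anchors the basket, was at 22.04, 23.69 and 23.06 FPKM in si-NC and at 23.00, 23.14 and 22.94 FPKM in si-STRIP2. NUP50, a mobile partner of NUP153 that helps to release import cargo, was at 25.83, 26.02 and 26.23 FPKM in si-NC and at 25.27, 26.68 and 26.75 FPKM in si-STRIP2. The knockdown values lay inside the control range for NUP153 and on either side of it for NUP50. The approximate 95% intervals of their log2 fold changes ran from -0.075 to 0.083 for NUP153 (estimate 0.0038, adjusted p = 0.945) and from -0.071 to 0.087 for NUP50 (estimate 0.0083, adjusted p = 0.877), and both estimates changed sign under some of the alternatives. Their log2 ratio differed by -0.0045 between groups (exact permutation p = 0.9). Against NUP153, NUP107 went from log2 ratios of -0.70, -0.85 and -0.75 to 0.0028, -0.0074 and -0.034, with a difference of 0.75 (exact permutation p = 0.1, the smallest possible).

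**Figure D3:**
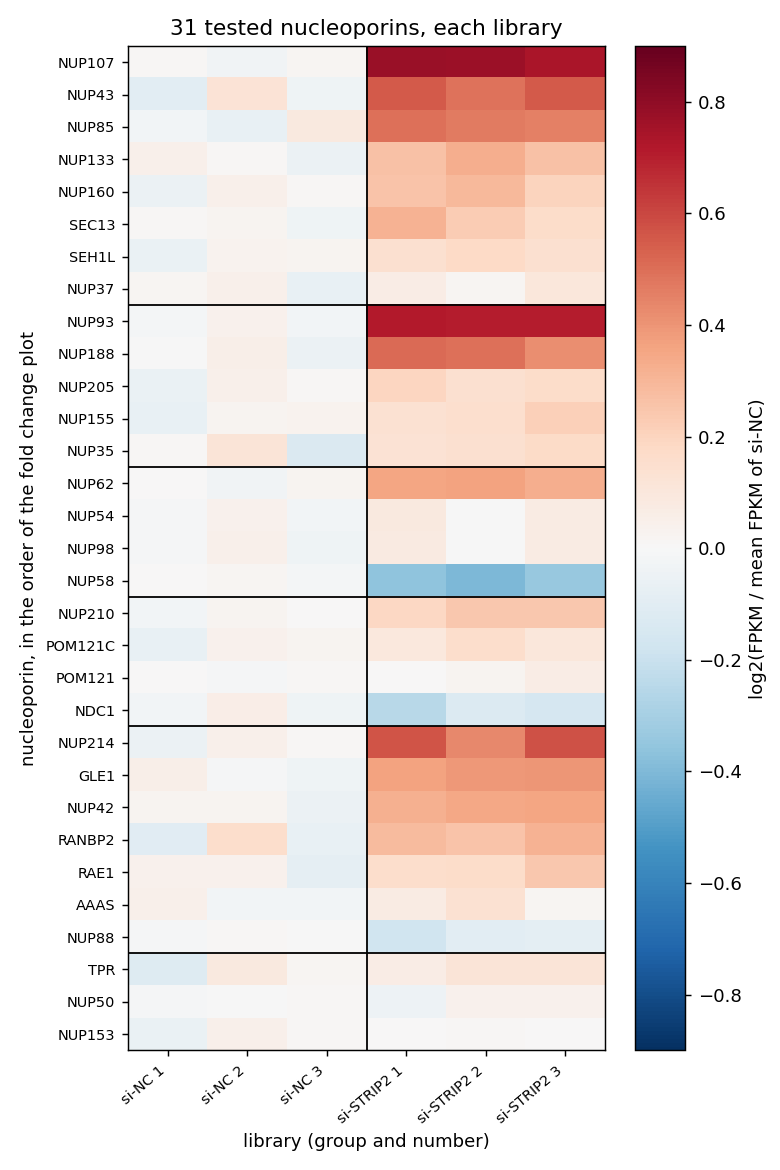
Each cell is the log2 ratio of 1 nucleoporin's FPKM in 1 library to its si-NC mean (colour scale, red higher, blue lower), with 31 nucleoporins as rows grouped by place and the 6 libraries as columns. The 3 si-STRIP2 columns are alike, the rows of NUP107 and NUP93 are deepest red, NUP58 is blue, and the basket rows at the foot are pale.

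In all, 9 nucleoporins kept their call and direction in every one of 18 alternative settings: NUP107, NUP43, NUP85, NUP93, NUP188, NUP62, NUP58, NUP214 and GLE1. These include a test against a 1.2-fold change in place of no change, each library left out in turn, and DESeq2 and limma in place of edgeR. Across them the log2 fold change ran from 0.72 to 0.77 for NUP107, from 0.63 to 0.72 for NUP93 and from -0.39 to -0.35 for NUP58. NUP214 had the widest span of these, from 0.30 to 0.57, with its lowest value on the log2(FPKM + 1) scale. The test against a 1.2-fold change by itself called 8 nucleoporins higher and 1 lower, beside 3723 of the 15687 genes tested. How many of all genes kept their call in every setting was not counted.

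Some of these genes share exons with a neighbour, and whether counting used strand is not given in the sources used here. Overlapping exons made up 21.1% of the exonic bases of NUP62, 10.4% with ATF5 on the opposite strand, which held 42.4% as many counts, and the rest with AC011452.1 and IL4I1 on the same strand, which held 0% and 0.167%. For NUP88 the share was 18.7%, with RABEP1 and RPAIN on the opposite strand at 53.6% and 55.97% as many counts. For NUP43 it was 5.03%, with PCMT1 on the opposite strand at 92.9% as many counts. The part of neighbours' reads in the values of NUP62, NUP88 and NUP43 was not tested.

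The levels of the nucleoporins in control cells spanned a wide range per length of exon. Among tested genes, mean FPKM in si-NC ran from 1.13 for NUP214 to 36.1 for NDC1, with a median of 11.85 over the 31 tested, and NUP210L was at 0.053. Next to NDC1 came TPR at 27.5 ± 1.92, NUP50 at 26.0 ± 0.200, NUP37 at 24.8 ± 1.05 and NUP153 at 22.9 ± 0.833 FPKM (SD, n = 3 each). Over the control libraries, TPR overlapped with NUP50 and with NUP37, and NUP37 with NUP153, so the order of these neighbours is not set by the values. NUP50 lay narrowly above NUP37, and NDC1 lay above all other nucleoporins in every control library. At the low end, POM121 at 5.83, GLE1 at 4.64 and NUP214 at 1.13 FPKM did not overlap.

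This order depends on the length used. How the deposited exonic sizes were made is not given in the sources used here, and they exceed the longest coding transcript in many cases, as for NUP214 with 24733 against 7600 bases and GLE1 with 10755 against 3321 bases. With the length of the longest protein-coding transcript in GENCODE 29, a choice made after the values had been seen, NUP50 ranked first at 40.96 and NDC1 passed from first to rank 8 at 33.2 on the FPKM scale. NUP54 passed from rank 27 to rank 2 at 40.8, since its exonic size is 6.58 times its transcript, and NUP88 from rank 22 to rank 3 at 39.3. NUP93 at 8.64, POM121 at 8.2 and NUP214 at 3.70 stayed near the foot of the order. Differences between groups for one gene do not depend on this length.

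**Figure D4:**
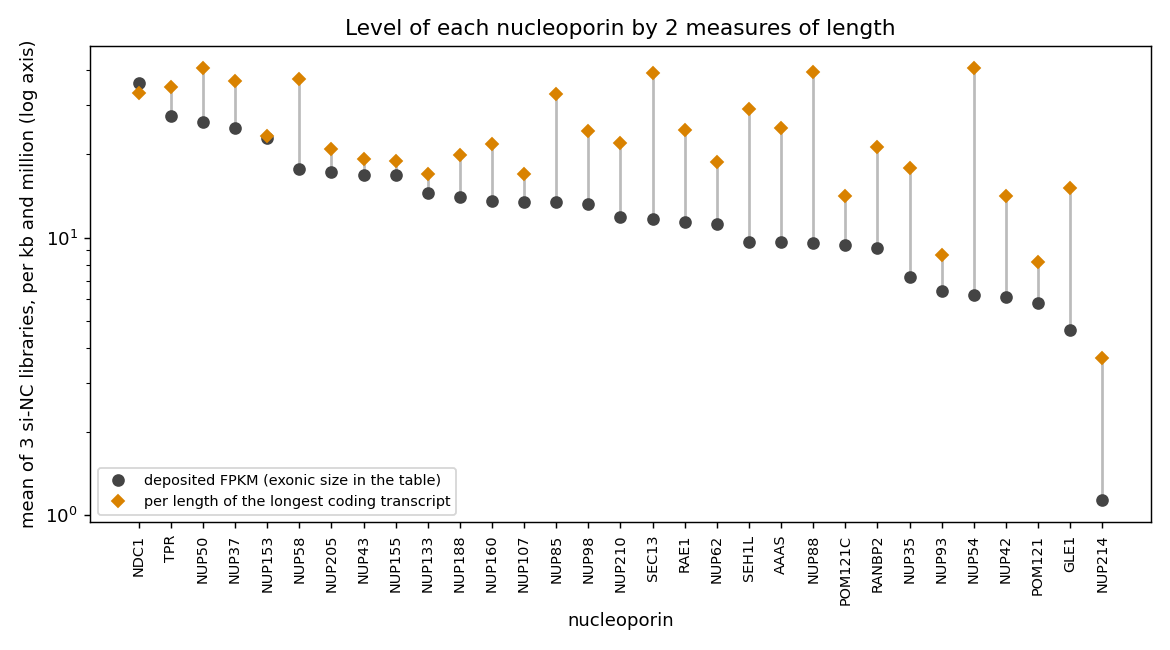
Mean level of 31 nucleoporins over the 3 si-NC libraries (vertical log axis, FPKM scale), ordered by deposited FPKM, with the deposited exonic size (circles) or the longest coding transcript (diamonds) as the length. Diamonds lie above circles for nearly all genes, most of all for NUP54, and NUP214 is the lowest by both.

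The nucleoporin genes lie on 17 chromosomes, with at most 4 on any one. Their promoters were compared in RefSeq windows of GRCh38.p14, which run from 250 bases before to 50 bases after each annotated start. Windows were found for 30 of the 32 genes, all but NUP43 and GLE1. Words searched on both strands, which may overlap one another, were CCGGAAG for ETS factors, GGGCGG for SP factors, CCAAT for NF-Y, GCATGCGC for NRF1, AAGATGGC for YY1, GAANNTTC for heat shock factors, TTTGGCGC as well as TTTCCCGC for E2F, and TTTGAA as well as TTCGAA for the cell cycle homology region. A match is a description of the letters and no evidence of binding.

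The ETS word was the one whose share stood farthest above that of tested genes, in percentage points. It occurred near 13 of 30 nucleoporin genes (43.3%), beside 22.0% of the 11074 tested genes with a window and 12.2% of all 27305 genes with one. The sites are shown because no other word searched exceeded its share among tested genes by as much. Each line gives the site with 11 bases on either side, 5′ to 3′ on the strand of the word, and the capitals mark the word.
NUP107 (chr12:68686957-68686985, minus strand): agcccttcgacCCGGAAGcagtctgtccc
NUP214 (chr9:131125496-131125524, plus strand): gggagcggcggCCGGAAGaacgcgcggct
NUP160 (chr11:47848367-47848395, minus strand): ccgccccacccCCGGAAGtgacggcgacc
SEC13 (chr3:10321108-10321136, minus strand): cgggcccggcgCCGGAAGtgagctgttcc
SEH1L (chr18:12947839-12947867, plus strand): ggcttgagggaCCGGAAGgtggggcgagt
NUP35 (chr2:183124335-183124363, plus strand): atagcgcaggtCCGGAAGttacgcaaccc
POM121C (chr7:75486351-75486379, plus strand): gcaggagtgcaCCGGAAGtccgcctcccg
NUP37 (chr12:102120111-102120139, minus strand): cgccctccgacCCGGAAGcagagccacag
NUP54 (chr4:76148490-76148518, plus strand): agcctaagaggCCGGAAGgcgccaagggc
POM121 (chr7:72879263-72879291, minus strand): gcaggagtgcaCCGGAAGtccgcctcctg
NUP50 (chr22:45163906-45163934, plus strand): aggtgctactgCCGGAAGcgccggcgcgc
NUP88 (chr17:5419744-5419772, plus strand): gagcagacggcCCGGAAGctcgagaggct
NUP58 (chr13:25301548-25301576, minus strand): cacgtagcccgCCGGAAGtgtaaccgtca

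NUP107 and NUP54 held a further match, and for them the site nearest the start is shown. In SEC13 the same site lay in 2 overlapping windows, and its distance is taken from the nearer start. In 11 of the 13 genes the word lay within 100 bases before an annotated start, and of the sites shown the farthest, in SEH1L, began 161 bases before it. The base after the word was T in 6 sites, C in 4, G in 2 and A in 1. The sites of POM121 and POM121C differ in 1 of 29 letters. Genes with the word included the one that rose most, NUP107, and the one that fell most, NUP58. Of the 13, 6 were called higher and 2 lower, with a median log2 fold change of 0.12. Of the 17 without it, which include the untested NUP210L, 11 were called higher and 1 lower, with a median of 0.20. Over all genes tested, 27.8% were called higher and 27.0% lower.

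The other words differed less from tested genes or were rarer near nucleoporins. The SP word occurred near 46.7% of nucleoporin genes, beside 76.7% of tested genes, and the NF-Y word near 12 of 30, beside 43.1%. The NRF1 word occurred near NUP107, NUP50 and NUP62 (10.0%, beside 6.25%), and the YY1 word near 4 genes (13.3%, beside 6.36%). Of the words tied to the cell cycle, TTTGAA occurred near 8 genes (26.7%, beside 13.4%). Of these 8, 2 rose and 1 fell, beside 27.8% and 27.0% of all genes tested. TTCGAA occurred near NDC1 alone (beside 2.29%), the E2F word TTTGGCGC near NUP155 alone (beside 1.34%) and TTTCCCGC near none (beside 3.33%). The heat shock word occurred near NUP160 alone (beside 6.68%).

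The genes that work with the pore were described from lists chosen with earlier results of these data known. Their counts stand beside 54.8% of all genes tested called, 27.8% higher and 27.0% lower, with a median log2 fold change of 0.014. Factors that bring messenger RNA to the pore rose in 15 of 18 genes tested (83.3%), with a median log2 fold change of 0.38. DESeq2 called 12 of them higher, limma-voom 15 and limma on FPKM 13. Of those called by edgeR, DDX39B and SARNP had groups that overlapped. No gene of this list was called lower by edgeR, DESeq2, limma-voom or limma on FPKM, and none had an unadjusted p under 0.05 in that direction. ALYREF, the adaptor that hands mRNA to the export receptor, went from 38.6 ± 2.07 to 69.8 ± 3.50 FPKM (SD, n = 3 each; log2 fold change 0.85, adjusted p = 2.72e-16). DDX39A, a helicase of the same TREX pathway, went from 16.1 ± 0.826 to 26.6 ± 0.699 FPKM (SD, n = 3 each; log2 fold change 0.72, adjusted p = 2.07e-15). The receptor itself, NXF1, rose by 0.45 (adjusted p = 3.25e-09), while its partners NXT1 and NXT2 were not called. These 3 were named after their values had been seen.

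In the RAN cycle, which gives transport its direction, 5 of 7 genes rose (71.4%) and none was lower by any of these tools or at an unadjusted p under 0.05, with a median log2 fold change of 0.32. RANBP1, which helps to take RAN off export complexes, went from 38.2 ± 1.93 to 54.4 ± 1.35 FPKM (SD, n = 3 each; adjusted p = 1.42e-12). RANBP3, a cofactor of the export receptor XPO1, went from 5.31 ± 0.260 to 7.32 ± 0.455 FPKM (SD, n = 3 each; adjusted p = 1.21e-08).

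Of 7 export receptors, 4 rose and 1 fell, with a median of 0.19 (71.4% called). The one that fell was XPOT, the exporter of transfer RNA, from 78.71 ± 2.07 to 47.51 ± 0.809 FPKM (SD, n = 3 each; log2 fold change -0.73, adjusted p = 9.87e-17), while XPO5, the exporter of precursor microRNAs, rose from 11.2 ± 0.438 to 14.6 ± 0.220 FPKM (adjusted p = 2.44e-09). Of 11 import receptors of the importin beta family, 5 rose and 1 fell, with a median of 0.063, and the share called, 54.5%, was near that of all genes tested. IPO5 rose from 51.9 ± 1.85 to 67.1 ± 2.56 FPKM (SD, n = 3 each; adjusted p = 7.04e-09) and IPO9, which carries histones, from 11.7 ± 0.147 to 14.4 ± 0.284 FPKM (SD, n = 3 each; adjusted p = 1.45e-07).

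Of 6 tested importin alpha adaptors, 3 rose and 1 fell, with a median of 0.059 (66.7% called). KPNA4 fell from 14.71 ± 0.890 to 9.87 ± 0.238 FPKM (SD, n = 3 each; log2 fold change -0.58, adjusted p = 1.69e-13) and KPNA2 rose from 60.1 ± 1.80 to 67.5 ± 1.03 FPKM (SD, n = 3 each; log2 fold change 0.16, adjusted p = 7.72e-04).

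Among 9 factors of pore assembly and turnover, 4 fell (44.4%) and the other 5 were not called, with a median log2 fold change of -0.12, and no gene was higher by any of these tools or at an unadjusted p under 0.05. SENP2, a SUMO protease that docks at the basket, went from 12.1 ± 0.231 to 9.65 ± 0.286 FPKM (SD, n = 3 each; log2 fold change -0.33, adjusted p = 1.80e-07), and TOR1AIP2, a membrane cofactor of torsin ATPases, from 13.4 ± 0.810 to 11.7 ± 0.214 FPKM (SD, n = 3 each; log2 fold change -0.20, adjusted p = 1.43e-04). Among 11 genes of the lamina and inner nuclear membrane, 6 rose and 2 fell, with a median of 0.10 (72.7% called). BANF1, which binds chromatin to the envelope, went from 85.0 ± 3.64 to 117 ± 4.35 FPKM (SD, n = 3 each; adjusted p = 3.26e-11) and LMNA, the gene of the A-type lamins, from 34.8 ± 0.460 to 45.9 ± 2.69 FPKM (SD, n = 3 each; adjusted p = 7.78e-10).

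Most genes in the lists of the cell cycle also rose. Of 10 S phase genes, 8 rose and 2 fell, with a median log2 fold change of 0.45. Those that fell were CDC6 (log2 fold change -0.17) and RRM2 (-0.18). GINS2, a subunit of the replicative helicase, went from 8.0 ± 0.544 to 17.9 ± 0.181 FPKM (log2 fold change 1.15, adjusted p = 9.88e-18), and MCM2, of the same helicase, from 15.4 ± 0.248 to 27.7 ± 0.926 FPKM (log2 fold change 0.84, adjusted p = 2.09e-17; SD, n = 3 each). All 10 genes of G2 and mitosis rose, with a median of 0.35, among them TOP2A from 45.7 ± 1.27 to 62.3 ± 0.807 FPKM and CENPF from 29.1 ± 2.36 to 40.5 ± 0.981 FPKM (SD, n = 3 each; adjusted p = 1.39e-11 and 4.80e-11). The part of cell cycle stage in the nucleoporin values was not tested.

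**Figure D5:**
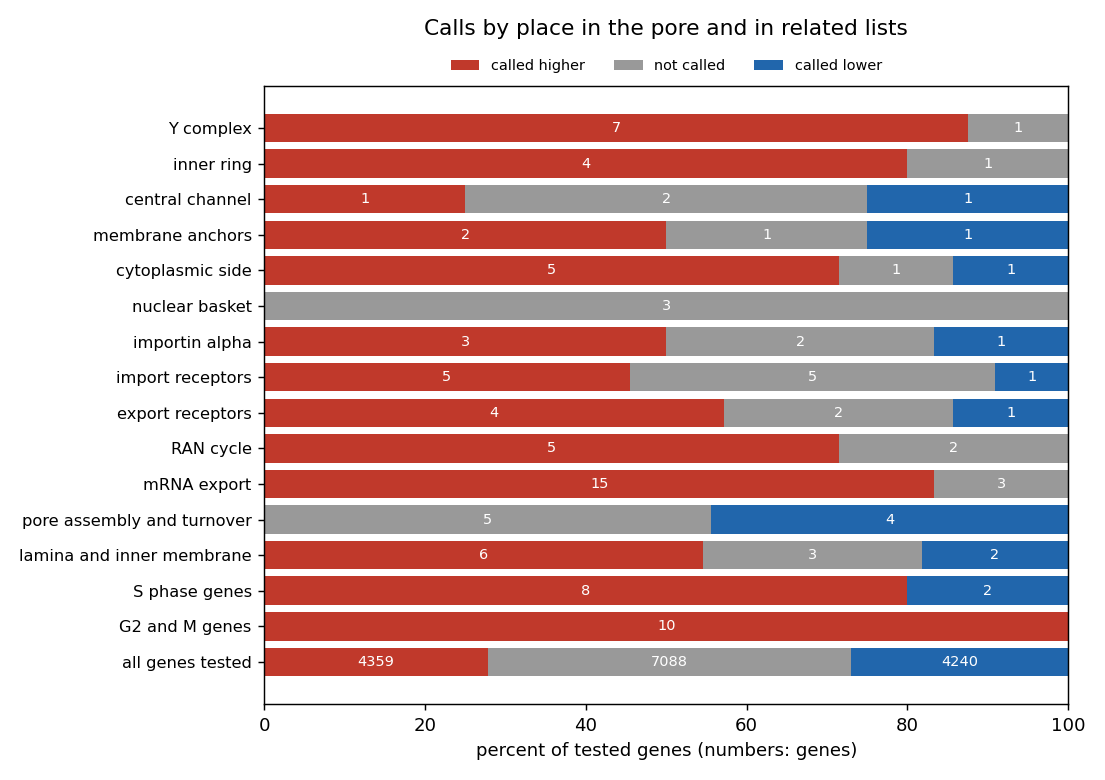
Percent of tested genes called higher (red), not called (grey) or called lower (blue) for each place in the pore, each related list and all genes tested (horizontal bars, with gene numbers inside). Red is widest in the Y complex, inner ring, mRNA export and the cell cycle lists, absent from the nuclear basket and the pore assembly list, and covers 4359 of 15687 genes in the bar of all genes.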

How the data were processed

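Poly(A) RNA of HCT116 cells was sequenced from directional libraries, 3 per group, per the labels' protocols. The authors deposited raw counts and FPKM per gene with an exonic size, per the file headers. The deposited FPKM values were recomputed from count, size and column total to within 0.005. HISAT2 2.2.1, HTSeq 0.6.1, cutadapt 1.9.1 and build GRCh38.p13 are named, per the submitters' processing notes. Strand use in counting and the annotation release are not given in the sources used here. Gene coordinates are those of the deposited table.

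Counts were tested in R 4.3.3 with edgeR 4.0.16 (filterByExpr with a minimum count of 10, TMM scaling, quasi-likelihood F test, group as the only term) over 15687 genes, with Benjamini-Hochberg adjustment and calls at an adjusted p under 0.05. TMM factors lay between 0.990 and 1.01, the biological coefficient of variation was 0.0388, and the tested nucleoporins had at least 421 counts in every library. Fold changes are si-STRIP2 over si-NC, an SE is the absolute log2 fold change over the square root of F, and intervals are normal approximations from it. DESeq2 1.42.0, limma 3.58.1, other scalings and filters, and each library left out were alternatives. The edgeR test was tested on simulated data. Lists are described by counts and medians, with no test.

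Every nucleoporin is named, with all 6 FPKM values for called ones of at least 1.2-fold. Of each related list, the called genes with the 2 smallest adjusted p are named. The nucleoporins, lists and rules were chosen with earlier results of these data known. Shared 50-base words and overlaps come from GENCODE 29, and promoters from RefSeq (GRCh38.p14).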

Additional observations from a re-analysis of the deposited data

How the results depend on the processing

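Of 734 recomputed counts and medians of lists, 681 stayed within 1.5 times the reported count or near the reported median, and 53 moved. The test against a 1.2-fold change called fewer genes by construction: 3723 of all genes, 8 nucleoporins higher and 1 lower. It left 3 higher in the Y complex, 2 in the inner ring, 0 higher and 0 lower among membrane anchors, and 2 higher and 0 lower on the cytoplasmic side. It left 0 importin alpha genes higher, 2 import receptors higher and 0 lower, 1 export receptor higher, 2 RAN cycle genes higher, 9 mRNA export genes higher, 0 assembly genes lower, and 3 lamina genes higher and 0 lower. For the following settings the cause was not tested. DESeq2 gave 1 membrane anchor higher, 2 import receptors lower and 1 lamina gene lower. With no filter on low counts, 1 membrane anchor was higher with a median of 0.12, and 1 lamina gene was lower. A minimum mean of 1 FPKM gave 2 import receptors and 2 export receptors lower. On the log2(FPKM + 1) scale the mRNA export median was 0.30. limma-voom called 1 basket gene higher and 2 import receptors lower, and without mitochondrial genes 2 import receptors were lower. Leaving out 1 library at a time gave 7690 to 8494 called genes, 18 to 21 nucleoporins higher and 2 to 3 lower, with a median of 0.15 to 0.19. In those fits 0 to 1 genes of the cytoplasmic side were lower (median 0.24 to 0.34), 1 to 2 import receptors lower (median 0.039 to 0.088), and 1 to 2 lamina genes lower. Likewise 1 to 2 membrane anchors were higher, 0 to 1 basket genes higher (median 0.00059 to 0.044) and 0 to 1 assembly genes higher (median -0.17 to -0.079), and the mRNA export median was 0.34 to 0.40. NUP50, not called, turned to -0.00069 with DESeq2, -0.0057 with the FPKM minimum, -0.0040 without mitochondrial genes, and ran from -0.012 (without si-STRIP2 3) to 0.044 with 1 library left out, below 0 also without si-NC 2 (-0.0013) or si-STRIP2 2 (-0.0037). NUP153, not called, turned to -0.0055 with DESeq2, -0.0031 with RLE scaling, -0.010 with the FPKM minimum, -0.0085 without mitochondrial genes, and ran from -0.021 (without si-NC 1) to 0.018 with 1 library left out. With POM121 and POM121C summed, and RANBP2 and the RGPD genes, 18 nucleoporins were higher and 3 lower. Libraries that share a number did not deviate together (correlations -0.0087, 0.015 and -0.10 over 12120 genes), so the numbers give no pairing, and a fit with the number as a replicate block called 8293 genes, 19 nucleoporins higher and 3 lower. The smallest difference called among nucleoporins was 1.09-fold, and depth left NUP210L untested, with at most 13 counts in a library.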
